A study of Mus musculus with 9 samples.

Results

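RNA sequencing of BV2 cells held in hypoxia was set against RNA sequencing of control BV2 cells. The comparison rests on 6 of the 9 libraries of the series, 3 titled hypoxia and 3 titled control, and covers every gene whose FPKM averaged 1 or more across all 9 libraries, 11802 of the 55335 gene identifiers deposited. FPKM counts sequenced fragments per unit of transcript length and of sequencing output. BV2 is an immortalised line of mouse microglia, the resident macrophages of the central nervous system, and all libraries are labelled wild type. The hypoxia libraries came from cells kept in a hypoxic workstation at 1% oxygen and carry the time label 24 h, and the medium of all cells was DMEM with serum. The control libraries carry the time label 0 h, and the labels give no oxygen level for them. Oxygen and time in culture therefore change together, and their parts cannot be told apart. A treatment tag of the controls names an adipogenic protocol, which goes against the titles of these libraries, and it was left aside. The other 3 libraries of the series came from cells given 100 µM ethanolamine in the same hypoxia. They entered the filter, the principal components and the shared estimate of the spread, but not the means compared.

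Cells read oxygen through dioxygenases that need it as a substrate. In well-oxygenated cells, prolyl hydroxylases of the EGLN family mark the alpha subunits of the hypoxia-inducible factors (HIF) for capture by the von Hippel-Lindau protein and degradation. When oxygen is short the subunits persist, pair with ARNT and bind DNA at the core letters ACGTG or GCGTG. Their known targets include glycolytic enzymes, glucose carriers, mitophagy receptors and the EGLN hydroxylases themselves. Low oxygen is also known to slow protein synthesis, ribosome production and the cell cycle. In macrophages it is known to change inflammatory genes.

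The cells carried most, but not all, of the markers expected of microglia and macrophages. Among all genes tested 24.7% rose and 34.7% fell. Of 15 such markers, 12 were tested, and 7 of these rose and 0 fell. Of the 7, Cx3cr1 and Mertk had control means of 0.195 and 0.192 FPKM and passed the filter through their hypoxic values. Itgam did not pass, but it entered here through the shorter of a pair of overlapping entries alone, so the gene as a whole was not tested. The markers had summed levels of 1399 to 1550 FPKM in hypoxia and 1122 to 1375 FPKM in control. Cd68, a lysosomal protein of macrophages, was the most abundant of them, at 678, 607 and 727 FPKM in hypoxia and 778, 594 and 670.5 FPKM in control. Aif1, P2ry12 and Tmem119, which mark microglia in brain, stayed under 1 FPKM in every hypoxia and control library. Summed markers of astrocytes, neurons and lymphocytes were below 1 FPKM in every library. Fibroblast markers summed to 0.954 to 1.14 FPKM in hypoxia and 0.530 to 0.571 FPKM in control, and oligodendrocyte markers, mostly Cnp, to 6.70 to 7.51 FPKM in hypoxia and 5.70 to 6.43 FPKM in control. The 7 neutrophil markers summed to 8.30 to 8.67 FPKM in hypoxia and 0 to 1.43 FPKM in control, nearly all from S100a8, and 5 of the 7, including S100a9, Ly6g and Mpo, were listed at 0. Endothelial markers summed to 5.16 to 5.57 FPKM in hypoxia and 1.84 to 2.22 FPKM in control, mostly from Vwf, and adipocyte markers to 161.8 to 176.6 FPKM in hypoxia and 165.2 to 173.2 FPKM in control, mostly from Lpl, with Adipoq, Plin1 and Lep listed at 0. The part of other cells in the results was not tested.

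Libraries of a group resembled each other. The first principal component of the tested genes over all 9 libraries held 69.9% of the variance. It placed the hypoxia libraries at 28.2 to 34.0, the control libraries at -55.9 to -53.1 and the ethanolamine libraries at 23.74 to 24.95. FPKM summed to 345067 to 350112 in the hypoxia libraries and to 324121 to 331189 in the control libraries, and the sources used here give no read totals. Ribosomal RNA-like transcripts took 9.24%, 11.3% and 6.99% of the sum in the hypoxia libraries, against 1.82%, 6.85% and 3.54% in the control libraries. FPKM is relative to the library total, so after rescaling without these and the mitochondrial transcripts the number of genes past the threshold was 6925. The labels do not state whether the 3 libraries of a group came from separate cultures, so the p-values describe the spread among these libraries, part of which may be technical. In RNA from whole cultures, fewer cells of a kind and less RNA per cell cannot be told apart. Log2 changes below are hypoxia minus control of log2(FPKM + 0.5), and the 0.5 added makes them too small for genes of low level.

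Most genes passed the test. Of 11802 genes, 7011 (59.4%) had an adjusted p below 0.05 (limma), 2919 of them higher in hypoxia (24.7%) and 4092 lower (34.7%). These shares are the background for every list count below. A log2 change of at least 1 was reached by 852 genes (7.22%), and one of at most -1 by 956 genes (8.1%). A log2 change of 2 or more was reached by 187 genes and one of -2 or less by 113, but the filter did not treat both sides alike. It averages over 6 hypoxic and 3 control libraries, so a gene can pass through its hypoxic values alone more easily than through its control values alone. Of the 187 genes, 93 had a control mean under 1 FPKM, and of the 113 genes 9 had a hypoxia mean under 1 FPKM. Among the 9603 genes whose hypoxia or control mean reached 3 FPKM, a limit chosen after the values were seen, the counts were 162 and 113. Over all sizes of change, 360 of the higher genes had a control mean under 1 FPKM and 196 of the lower genes had a hypoxia mean under 1 FPKM, and such genes are part of the list counts below. Small changes made up much of the total, since 2329 of the genes that passed changed by less than 0.5 on the log2 scale. The median log2 change of all genes tested was -0.09, and the median of its absolute value was 0.41. The median SD between libraries of a group was 0.113 in hypoxia and 0.114 in control on the same scale. For 7668 genes (65.0%) the hypoxia values lay all above or all below the control values.

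**Figure D1:**
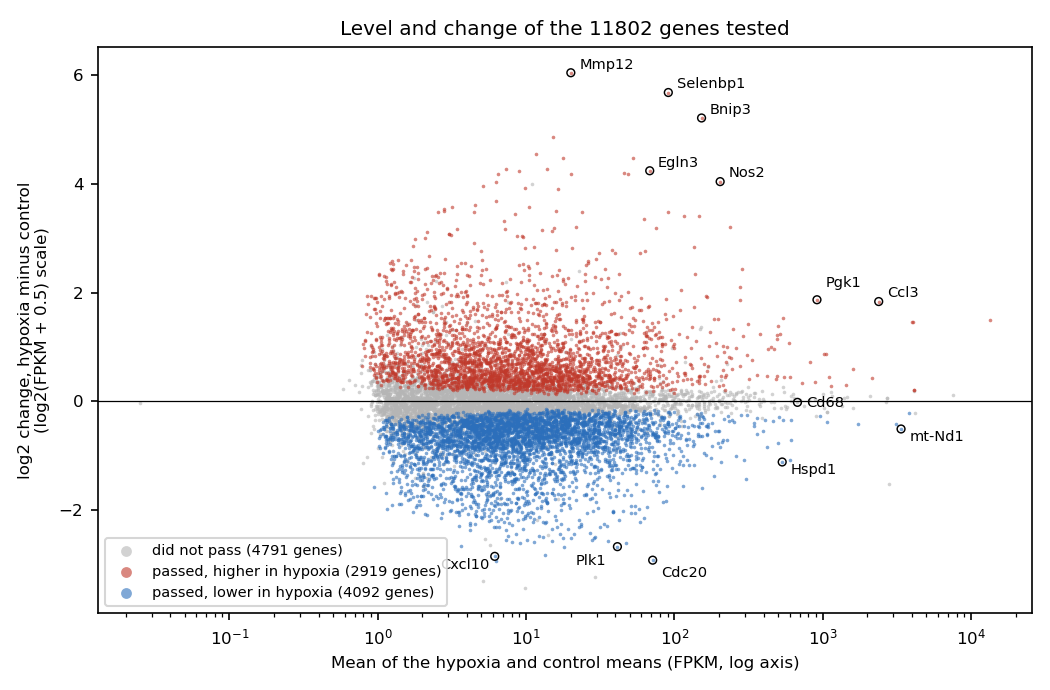
Each point is 1 of the 11802 genes tested, at the mean of its hypoxia and control means in FPKM (log axis) and at its log2 change, hypoxia minus control; red genes passed and were higher in hypoxia, blue genes passed and were lower, grey genes did not pass. The highest changes reach 6.05 (Mmp12), while Plk1 and Cdc20 lie at -2.67 and -2.92 among the lowest.

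The gene with the highest log2 change of all those tested was Mmp12, which encodes macrophage elastase (chr9:7344381-7369499; positions are those of GENCODE M21 on GRCm38). It had 48.8, 34.5 and 36.7 FPKM in the hypoxia libraries, against 0.121, 0.0561 and 0.14 FPKM in the control libraries (log2 change 6.05 ± 0.12 (SE), adjusted p = 7.04e-09 by limma). The next was Selenbp1 (chr3:94933056-94944758), which encodes a selenium-binding methanethiol oxidase, with 203, 147 and 188 FPKM in the hypoxia libraries, against 3.43, 2.82 and 2.66 FPKM in the control libraries (log2 change 5.69 ± 0.12 (SE), adjusted p = 9.64e-09 by limma). Its neighbour in the same family, Selenbp2, rose by 3.69 (the sequences of this pair are close, and reads may have been split between them). Bnip3, a receptor on the outer mitochondrial membrane that recruits mitochondria into autophagosomes, had 301, 302 and 289 FPKM in the hypoxia libraries, against 6.68, 7.52 and 8.42 FPKM in the control libraries (log2 change 5.22 ± 0.09 (SE), adjusted p = 4.47e-09 by limma). In Mmp12, Selenbp1 and Bnip3 the lowest hypoxia value was more than 10 times the highest control value. Others among the highest changes of genes that averaged 5 FPKM or more were Sdc3, a cell surface proteoglycan (4.19), Gipr, the receptor of an incretin hormone (3.96), Ankrd37, a known HIF target (3.59), and Prelid2, of the family of mitochondrial lipid transfer proteins (3.49).

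Among genes that averaged 5 FPKM or more and passed, most of the lowest changes belonged to genes of cell division. The lowest change of any gene tested was -3.43, in a predicted microRNA gene whose libraries disagreed and which did not pass. Aunip (chr4:134510999-134523927), whose human counterpart binds Aurora A kinase, had 3.07, 2.78 and 2.97 FPKM in the hypoxia libraries, against 26.5, 22.6 and 23.1 FPKM in the control libraries (log2 change -2.83 ± 0.09 (SE), adjusted p = 4.15e-08 by limma). Nek2, a centrosomal kinase, had 3.93, 4.998 and 4.59 FPKM in hypoxia and 32.8, 30.1 and 31.7 FPKM in control, a log2 change of -2.68. The lowest control value of each was more than 6 times the highest hypoxia value. Gtse1 (-2.58), Kif2c (-2.58), Kif18b (-2.54) and Troap (-2.54) also act at the spindle. Calr3, a calreticulin known from testis, was also among the lowest (1.99, 1.82 and 3.01 FPKM in hypoxia and 15.8, 15.2 and 17.2 FPKM in control, a log2 change of -2.60), as was the interferon-inducible chemokine gene Cxcl10 (-2.85).

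Measured in FPKM rather than in log2 units, the largest gains other than ribosomal RNA-like transcripts were those of Ccl3 and Pgk1. Ccl3, a chemokine, had 3778, 3529 and 3863 FPKM in the hypoxia libraries, against 1203, 925 and 1011 FPKM in the control libraries (log2 change 1.84 ± 0.10 (SE), adjusted p = 6.09e-07 by limma), and Pgk1, a glycolytic kinase, had 1527, 1292 and 1494 FPKM in the hypoxia libraries, against 403, 378 and 394 FPKM in the control libraries (log2 change 1.87 ± 0.08 (SE), adjusted p = 1.59e-07 by limma). The groups did not overlap in either. The ribosomal RNA-like AY036118 had 19197, 23250.2 and 14536 FPKM in the hypoxia libraries, against 3328, 12881 and 6730.2 FPKM in the control libraries (log2 change 1.50 ± 0.45 (SE), adjusted p = 0.0169 by limma). Its libraries differed widely within each group, and the change did not pass without hypoxia library 2 (1.34), after quantile scaling (0.913) or with no filter on low values. Leaving out 1 control library moved it between 1.00 (without library 1) and 1.98 (without library 2). Among the largest losses were the mitochondrial gene mt-Nd1, with 2729, 2894 and 2734 FPKM in hypoxia and 3802, 4044 and 4038 FPKM in control, and the tubulin gene Tuba1b, with 373, 382 and 413 FPKM in hypoxia and 896, 768 and 798 FPKM in control.

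**Figure D2:**
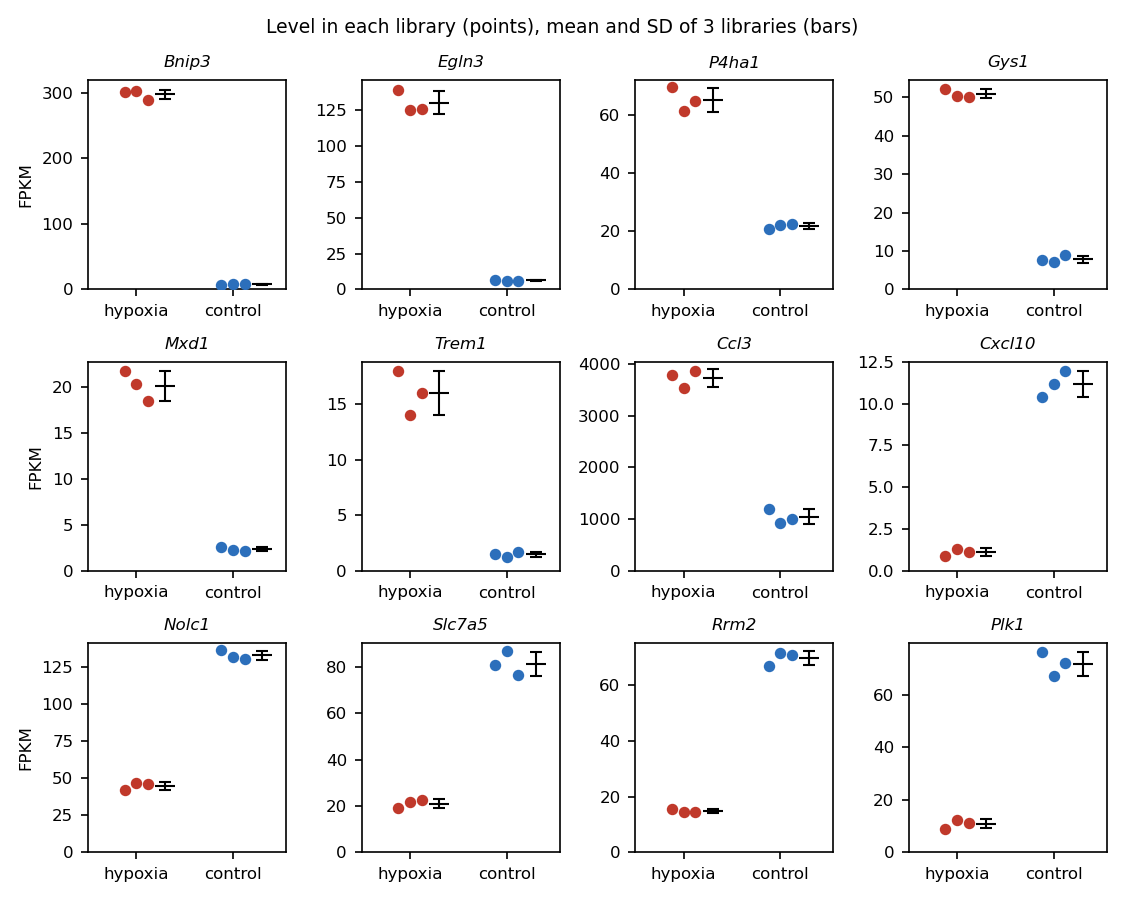
Points are the FPKM of 12 genes in the 3 hypoxia libraries (red, left) and the 3 control libraries (blue, right), with the mean and SD of each group beside them as a bar. In none of the 12 genes do the groups overlap: Bnip3, Egln3, P4ha1, Gys1, Mxd1, Trem1 and Ccl3 are higher in hypoxia, and Cxcl10, Nolc1, Slc7a5, Rrm2 and Plk1 are lower.

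Gene lists describe the rest of the response. They held 2025 genes in 72 lists, of which 1696 were tested, and their members were chosen with earlier results of these data known. Counts are given beside the 24.7% and 34.7% of all tested genes that were higher and lower, with no test of a list.

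**Figure D3:**
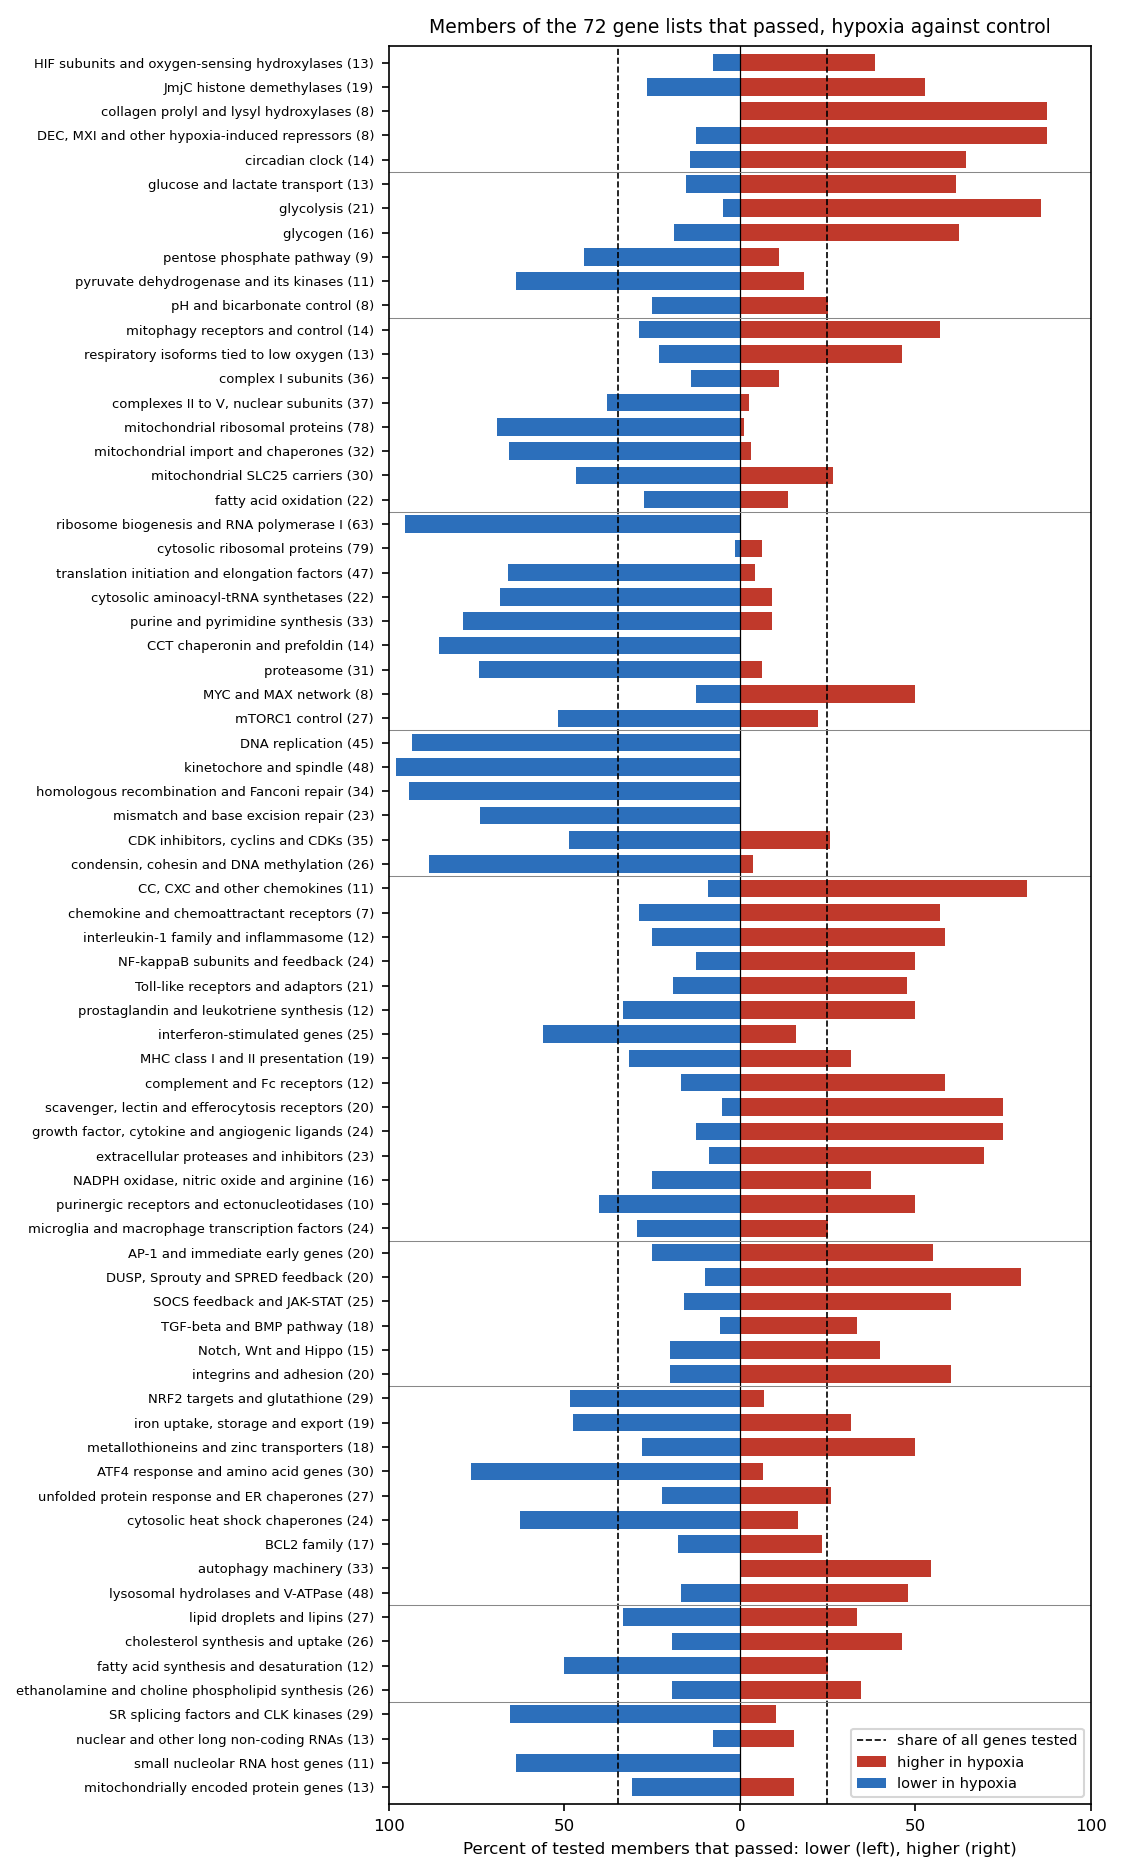
For each of the 72 lists the bars give the percent of tested members (number in brackets) that passed and were higher in hypoxia (red, to the right) or lower (blue, to the left), and the dashed lines give the shares of all 11802 genes, 24.7% and 34.7%. Lists of DNA replication, the kinetochore and ribosome biogenesis reach over 90% to the left, while collagen hydroxylases and glycolysis reach over 85% to the right.

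Genes of the oxygen-sensing pathway rose more often than they fell. Of 13 tested HIF subunits, hydroxylases and parts of the ubiquitin ligase for HIF, 5 rose and 1 fell. Egln3 had 139, 125 and 126 FPKM in the hypoxia libraries, against 6.86, 6.15 and 6.14 FPKM in the control libraries (log2 change 4.25 ± 0.07 (SE), adjusted p = 4.05e-09 by limma). Egln1, the main HIF prolyl hydroxylase, had 112, 94.9 and 98.5 FPKM in the hypoxia libraries, against 14.2, 15.8 and 14.7 FPKM in the control libraries (log2 change 2.73 ± 0.07 (SE), adjusted p = 1.84e-08 by limma). Every hypoxia value of both was over 6 times the highest control value. Vhl, which carries hydroxylated HIF to degradation, rose by 1.37 and Arnt2 by 0.83, while Cul2, the scaffold of the same ubiquitin ligase, fell by 0.25 on the log2 scale, a call kept in 13 of 19 other settings. The promoters of Bnip3 and Egln3 are shown with P4ha1 because they carry the letters that HIF binds.

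Bnip3 promoter: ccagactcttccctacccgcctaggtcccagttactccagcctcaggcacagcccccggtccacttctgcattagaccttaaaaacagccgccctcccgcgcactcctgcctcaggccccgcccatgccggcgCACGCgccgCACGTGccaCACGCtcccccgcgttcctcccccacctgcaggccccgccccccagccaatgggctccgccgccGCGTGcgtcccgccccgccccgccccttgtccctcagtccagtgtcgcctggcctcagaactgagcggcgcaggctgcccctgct
Egln3 promoter: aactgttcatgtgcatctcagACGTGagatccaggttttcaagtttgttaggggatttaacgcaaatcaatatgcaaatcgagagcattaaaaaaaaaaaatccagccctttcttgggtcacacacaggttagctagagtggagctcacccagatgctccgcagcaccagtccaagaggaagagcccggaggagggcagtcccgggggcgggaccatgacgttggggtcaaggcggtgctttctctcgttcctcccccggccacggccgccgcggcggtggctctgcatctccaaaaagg
P4ha1 promoter: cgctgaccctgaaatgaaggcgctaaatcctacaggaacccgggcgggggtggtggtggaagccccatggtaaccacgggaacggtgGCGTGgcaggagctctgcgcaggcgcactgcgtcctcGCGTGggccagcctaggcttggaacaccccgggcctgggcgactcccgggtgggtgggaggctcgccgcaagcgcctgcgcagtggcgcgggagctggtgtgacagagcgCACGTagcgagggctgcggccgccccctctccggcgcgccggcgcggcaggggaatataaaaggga

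Each stretch runs from 250 bases before to 50 bases after the start of the RefSeq gene on GRCm38.p6, 5′ to 3′ on the strand of the gene, at chr7:138909457-138909756 (minus strand), chr12:54203825-54204124 (minus strand) and chr10:59323046-59323345 (plus strand). Capitals mark ACGTG or GCGTG on either strand, so that CACGT and CACGC are their reverse complements, and neighbouring matches run together in Bnip3, where CACGTG holds ACGTG on both strands. Promoters were counted where the reference sequences held them, for 7943 of the 11802 genes tested. They covered 531 of the 852 genes that rose by at least 1 and 662 of the 956 that fell by at least 1. The marked letters are common. ACGTG stood in 27.1% of 531 promoters of genes that rose by at least 1, in 29.6% of 662 promoters of genes that fell by at least 1, in 25.8% of 2928 promoters of genes that did not pass, and in 27.2% of all 7943 promoters of tested genes. GCGTG stood in 45.0%, 56.8%, 54.3% and 54.0% of the same classes. In the lists ACGTG stood in 9 of 21 glycolysis promoters (42.9%) and 4 of 7 collagen hydroxylase promoters (57.1%), and GCGTG in 10 (47.6%) and 6 (85.7%) of the same promoters.

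Collagen hydroxylases prepare procollagen for folding and crosslinking and use the same chemistry as the EGLN enzymes. 7 of 8 tested members rose and 0 fell, with a median log2 change of 1.36. P4ha2 had 8.59, 8.16 and 9.01 FPKM in the hypoxia libraries, against 0.443, 0.221 and 0.284 FPKM in the control libraries (log2 change 3.49 ± 0.10 (SE), adjusted p = 3.26e-08 by limma). Plod2, a lysyl hydroxylase, had 125, 115 and 105 FPKM in the hypoxia libraries, against 9.801, 11.7 and 10.8 FPKM in the control libraries (log2 change 3.35 ± 0.08 (SE), adjusted p = 1.80e-08 by limma). P4ha1 rose by 1.56 and Plod1 by 1.46. No hypoxia value of these genes reached down to a control value. Of 19 JmjC histone demethylases, a further family of oxygen-dependent dioxygenases, 10 rose and 5 fell. Kdm3a, which removes methyl groups from histone H3 lysine 9, had 12.1, 11.7 and 10.2 FPKM in the hypoxia libraries, against 3.89, 4.11 and 4.23 FPKM in the control libraries (log2 change 1.37 ± 0.08 (SE), adjusted p = 8.77e-07 by limma). Kdm4b (1.35), Kdm7a (1.33) and Kdm6b (1.19) also rose, whereas Kdm8 (-1.36) and Riox1 (-0.68) fell.

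Transcriptional repressors known to be induced in hypoxia rose in 7 of 8 tested cases. Cited2, which competes with HIF for its coactivators, had 86.5, 73.8 and 74.5 FPKM in the hypoxia libraries, against 19.9, 16.3 and 20.98 FPKM in the control libraries (log2 change 2.01 ± 0.10 (SE), adjusted p = 3.48e-07 by limma). Bhlhe40 and Bhlhe41, the DEC repressors of the circadian clock, rose by 1.46 and 1.70, and Id3, a dominant inhibitor of helix-loop-helix factors, fell by 1.24. Clock genes themselves changed in most cases, with 9 of 14 higher and 2 lower. Per2, a core repressor of the clock, had 2.54, 2.61 and 2.19 FPKM in the hypoxia libraries, against 0.163, 0.132 and 0.126 FPKM in the control libraries (log2 change 2.20 ± 0.12 (SE), adjusted p = 7.10e-07 by limma). Rora rose by 2.63, Ciart by 1.79 and Tef by 1.37, while Nr1d2, a REV-ERB repressor, had 1.29, 1.47 and 1.39 FPKM in hypoxia and 4.201, 5.38 and 4.96 FPKM in control and fell by 1.50. Groups did not overlap in any of these genes. The labels give no hour of the day for the harvests.

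Genes of glucose uptake, glycolysis and glycogen rose more often than they fell. Of 13 tested glucose and lactate transporters, 8 rose and 2 fell. Slc2a3, a high-affinity glucose carrier known from neurons, had 3.84, 3.45 and 3.35 FPKM in the hypoxia libraries, against 0.0217, 0 and 0 FPKM in the control libraries (log2 change 2.99 ± 0.10 (SE), adjusted p = 4.98e-08 by limma). Slc16a3, a lactate exporter, rose by 1.17, and Slc2a8, an intracellular glucose carrier, by 1.34. Slc16a1, the other main monocarboxylate carrier, had 24.2, 25.4 and 24.4 FPKM in hypoxia and 51.2, 56.7 and 55.002 FPKM in control and fell by 1.12, and Mpc2, a subunit of the mitochondrial pyruvate carrier, fell by 0.35, a call lost without hypoxia library 3 or control library 2. Of 21 glycolysis genes, 18 rose, with a median of 1.03. The single member that fell was Tigar, a phosphatase that removes the activator of phosphofructokinase, with 10.97, 12.3 and 12.1 FPKM in hypoxia and 17.96, 18.3 and 16.2 FPKM in control (log2 change -0.55 ± 0.09 (SE), adjusted p = 0.000547 by limma).

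Of 16 tested glycogen genes 10 rose and 3 fell. Ppp1r3b, which brings protein phosphatase to glycogen and thereby activates its synthesis, had 20.6, 18.9 and 17.4 FPKM in the hypoxia libraries, against 0.779, 0.82 and 0.755 FPKM in the control libraries (log2 change 3.92 ± 0.08 (SE), adjusted p = 9.53e-09 by limma). Gys1, glycogen synthase, had 52.3, 50.5 and 50.1 FPKM in the hypoxia libraries, against 7.603, 7.21 and 8.95 FPKM in the control libraries (log2 change 2.62 ± 0.08 (SE), adjusted p = 2.94e-08 by limma). Pgm2, which interconverts sugar phosphates on the way to glycogen, had 193, 164 and 180.1 FPKM in the hypoxia libraries, against 45.9, 40.4 and 41.99 FPKM in the control libraries (log2 change 2.05 ± 0.07 (SE), adjusted p = 6.96e-08 by limma). Epm2a, the glycogen phosphatase laforin, rose by 3.07. In each of these 4 genes every hypoxia value was more than 3 times every control value, while the glycogen phosphorylase gene Pygb fell by 0.44 and the phosphorylase kinase gene Phka2 by 0.41.

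Genes that send glucose carbon elsewhere fell more often than they rose, as did the genes tested as a whole. In the pentose phosphate pathway 4 of 9 members fell (44.4%, against 34.7% of all genes tested). In the same list 1 rose (11.1%, against 24.7%). G6pdx, its entry enzyme, had 88.4, 90.6 and 94.8 FPKM in the hypoxia libraries, against 158, 141 and 146 FPKM in the control libraries (log2 change -0.70 ± 0.06 (SE), adjusted p = 1.04e-05 by limma), and Taldo1 (-0.70) and Rpia (-0.92) fell. Of 11 genes of the pyruvate dehydrogenase complex and its regulators, 7 fell, among them Dlat (-0.54), Pdhx (-0.53) and Pdha1 (-0.35). The 2 that rose were both kinases that switch the complex off. Pdk1 had 35.7, 33.1 and 33.7 FPKM in the hypoxia libraries, against 7.899, 8.64 and 9.24 FPKM in the control libraries (log2 change 1.93 ± 0.07 (SE), adjusted p = 5.96e-08 by limma), and Pdk3 rose by 0.83. Of 8 genes of pH control, 2 rose (1 without hypoxia library 1, hypoxia library 2 or control library 1) and 2 fell. Car12, a carbonic anhydrase that is induced by hypoxia in human tumour cells, had 4.91, 4.65 and 5.13 FPKM in hypoxia and 13.8, 14.9 and 14.4 FPKM in control here and fell by 1.46.

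Over 8 lists of mitochondrial genes 121 of 261 tested members fell and 31 rose. Of 78 mitochondrial ribosomal protein genes, 54 fell and 1 rose, or 3 without hypoxia library 2 (median -0.53), led by Mrps28 (-1.26), Mrpl35 (-1.17) and Mrpl2, which had 19.998, 24.9 and 21.5 FPKM in the hypoxia libraries, against 50.7, 43.7 and 50.4 FPKM in the control libraries (log2 change -1.11 ± 0.10 (SE), adjusted p = 1.64e-05 by limma). The member that rose was Mrpl52 (0.43), and every hypoxia value of Mrpl2 lay below every control value. Of 32 import and chaperone genes, 21 fell. Hspd1, the mitochondrial chaperonin, had 322, 343 and 345 FPKM in the hypoxia libraries, against 698, 757 and 735 FPKM in the control libraries (log2 change -1.12 ± 0.07 (SE), adjusted p = 1.08e-06 by limma), and Timm10 fell by 1.20. Complex I subunits stayed close to their control level, with 4 of 36 higher, 5 lower and a median of -0.02. Under other scalings complex I gave 5 higher and 4 lower, or 4 higher and 10 lower, and there were 9 lower without control library 2, 3 lower without control library 1 or 3, and 1 and 2 higher without hypoxia libraries 1 and 3, so no direction is given for it. Of 37 nuclear subunits of the other complexes 14 fell and 1 rose (2 without hypoxia library 2, 0 without hypoxia library 1 or 3), with Cyc1 at -0.66 and Sdha at -0.55.

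Some respiratory genes rose. Ndufv3, an accessory subunit of complex I with tissue-specific forms, had 30.6, 24.98 and 32.9 FPKM in the hypoxia libraries, against 8.28, 7.42 and 8.04 FPKM in the control libraries (log2 change 1.83 ± 0.10 (SE), adjusted p = 5.19e-07 by limma). Higd1a, which binds the respiratory chain in low oxygen, had 44.6, 36.9 and 44.1 FPKM in the hypoxia libraries, against 7.38, 8.61 and 7.41 FPKM in the control libraries (log2 change 2.35 ± 0.09 (SE), adjusted p = 1.30e-07 by limma). Both were over 3-fold higher in every hypoxia library than in any control library. Cox7a2l, a factor of respiratory supercomplexes, rose by 1.01 and the protease gene Lonp1 by 0.53, while Cox10, which makes the heme of cytochrome oxidase, had 6.07, 7.11 and 5.89 FPKM in hypoxia and 17.01, 15.3 and 15.4 FPKM in control and fell by 1.26. In this list of low-oxygen isoforms 6 of 13 rose and 3 fell. Mitophagy genes rose in 8 of 14 cases. Bnip3l, the relative of Bnip3, had 61.9, 58.8 and 56.7 FPKM in the hypoxia libraries, against 11.4, 12.7 and 11.3 FPKM in the control libraries (log2 change 2.28 ± 0.07 (SE), adjusted p = 3.51e-08 by limma), Pink1 rose by 0.74 and Nbr1 by 0.75, and the inner membrane receptor gene Phb2 fell by 0.73.

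Among 30 carriers of the inner mitochondrial membrane 14 fell and 8 rose. Slc25a10, which exchanges dicarboxylates, had 6.35, 4.98 and 5.97 FPKM in hypoxia and 15.3, 12.6 and 13.5 FPKM in control and fell by 1.19, the glutamate carrier gene Slc25a22 fell by 1.22, and Slc25a36 and Slc25a24 rose by 0.90 and 0.68. Fatty acid oxidation counted 3 higher and 6 lower of 22. Its gatekeeper Cpt1a had 1.89, 2.27 and 2.27 FPKM in the hypoxia libraries, against 6.28, 5.01 and 5.66 FPKM in the control libraries (log2 change -1.21 ± 0.10 (SE), adjusted p = 7.90e-06 by limma), with no overlap of the groups. Of 13 genes encoded in mitochondrial DNA, 4 fell, of which mt-Nd1 changed furthest (-0.51), while quantile scaling gave 7 lower and 0 higher. The 2 that rose were mt-Nd6 (0.28) and mt-Co2 (0.22), and only 1 rose without any one of hypoxia libraries 1, 2 and 3 and control libraries 2 and 3, and 0 without control library 1. The lowest change of the list was that of mt-Atp6, which did not pass, with 816, 3424 and 894 FPKM in the hypoxia libraries, against 3615, 4086 and 3952 FPKM in the control libraries (log2 change -1.51 ± 0.62 (SE), adjusted p = 0.0629 by limma). Its hypoxia library 2 lay near the control libraries. Nuclear copies of these genes may share reads with them.

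Genes that build ribosomes fell, while most genes of the ribosome itself did not pass. Of 63 ribosome biogenesis genes, 60 fell and 0 rose, with a median of -0.75. Nolc1, a nucleolar chaperone of small nucleolar particles, had 41.8, 46.5 and 45.8 FPKM in the hypoxia libraries, against 136, 132 and 130.2 FPKM in the control libraries (log2 change -1.56 ± 0.06 (SE), adjusted p = 7.38e-08 by limma). Utp20, of the small subunit processome, had 4.96, 6.17 and 4.87 FPKM in the hypoxia libraries, against 16.7, 19.5 and 18.4 FPKM in the control libraries (log2 change -1.68 ± 0.10 (SE), adjusted p = 1.12e-06 by limma). In both the lowest control value was more than 2 times the highest hypoxia value, and Nat10 (-1.40) and Noc4l (-1.39) fell too. Of 79 cytosolic ribosomal protein genes, 73 did not pass and the median was 0.04. Their counts of 5 higher and 1 lower depended on scaling and on single libraries, at 6 higher and 17 lower after quantile scaling, 1 and 1 without hypoxia library 1, 15 and 0 without hypoxia library 2, and 4 and 4 without control library 2. Processed pseudogenes may share reads with these genes.

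Most other genes of protein synthesis, folding and degradation fell. Initiation and elongation factors fell in 31 of 47 cases. Eif4g2 had 75.1, 81.6 and 76.3 FPKM in the hypoxia libraries, against 155, 174 and 166 FPKM in the control libraries (log2 change -1.08 ± 0.06 (SE), adjusted p = 6.60e-07 by limma). Eif4e, the cap-binding protein, had 9.05, 10.5 and 19.3 FPKM in hypoxia and 25.9, 28.4 and 26.7 FPKM in control and fell by 1.11. Its hypoxia library 3 lay nearer to control than the other two, and without hypoxia library 1 the change (-0.90) did not pass. Eif4ebp1, which blocks this protein, had 105, 82.7 and 100.4 FPKM in the hypoxia libraries, against 41.6, 44.2 and 43.1 FPKM in the control libraries (log2 change 1.15 ± 0.09 (SE), adjusted p = 4.25e-06 by limma). Of 22 aminoacyl-tRNA synthetase genes 15 fell, led by Vars (-1.09) and Mars (-0.83), and Sars (0.41) and Qars (0.20) rose, the second in 14 of 19 other settings. Of 14 members of the CCT chaperonin and prefoldin 12 fell and 0 rose, with Cct6a at -0.67. Proteasome subunits fell in 23 of 31 cases, furthest for Psmc4 (-0.67), while Psmd8 rose by 0.56.

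Nucleotide synthesis genes fell in most cases. Of 33 purine and pyrimidine genes 26 fell and 3 rose (median -0.93). Shmt1, which feeds one-carbon units into thymidylate, had 9.14, 10.3 and 9.85 FPKM in the hypoxia libraries, against 44.1, 39.5 and 41.9 FPKM in the control libraries (log2 change -2.05 ± 0.07 (SE), adjusted p = 4.85e-08 by limma). Tyms, thymidylate synthase, had 3.48, 3.62 and 2.85 FPKM in the hypoxia libraries, against 13.4, 14.4 and 15.4 FPKM in the control libraries (log2 change -1.97 ± 0.10 (SE), adjusted p = 3.79e-07 by limma). Shmt2, the mitochondrial counterpart of Shmt1, had 38.4, 36.2 and 39.2 FPKM in the hypoxia libraries, against 145, 135 and 131 FPKM in the control libraries (log2 change -1.83 ± 0.06 (SE), adjusted p = 4.98e-08 by limma). Each was at least 3-fold lower in every hypoxia library than in any control library. The members that rose included Adssl1 (1.27) and Mthfd1l (0.95).

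In the MYC and MAX network, which drives growth genes, 4 of 8 tested members rose and 1 fell. Mxd1, which competes with MYC for MAX, had 21.8, 20.3 and 18.5 FPKM in the hypoxia libraries, against 2.62, 2.33 and 2.16 FPKM in the control libraries (log2 change 2.85 ± 0.09 (SE), adjusted p = 4.15e-08 by limma). Mxi1, a related antagonist and HIF target, had 17.4, 28.4 and 26.6 FPKM in the hypoxia libraries, against 6.07, 5.901 and 11.9 FPKM in the control libraries (log2 change 1.58 ± 0.29 (SE), adjusted p = 0.00111 by limma), with more spread between libraries. Myc itself was low, at 2.26, 1.88 and 1.63 FPKM in hypoxia and 0.926, 1.15 and 0.785 FPKM in control, and rose by 0.74. Among 27 regulators of mTORC1, 6 rose and 14 fell. Ddit4, or REDD1, an inhibitor of mTORC1 known to respond to hypoxia, had 25.1, 23.7 and 21.2 FPKM in the hypoxia libraries, against 8.02, 8.62 and 7.49 FPKM in the control libraries (log2 change 1.48 ± 0.08 (SE), adjusted p = 7.34e-07 by limma), Rragd rose by 1.15 and Deptor fell by 1.03.

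**Figure D4:**
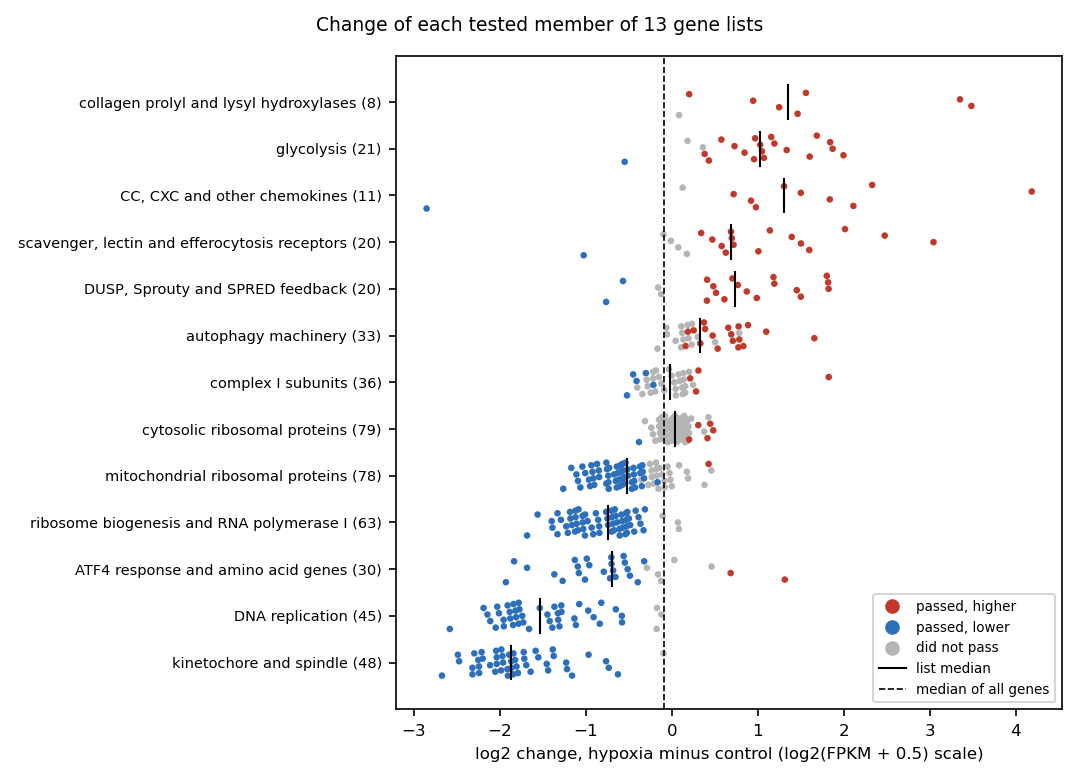
Each point is a tested member of 1 of 13 gene lists (number of tested members in brackets) at its log2 change, hypoxia minus control; red passed and was higher, blue passed and was lower, grey did not pass, black bars are list medians and the dashed line is the median of all genes, -0.09. Members of DNA replication and the kinetochore lie almost wholly to the left, around medians of -1.54 and -1.87, while cytosolic ribosomal proteins gather near 0.

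The kinetochore list had the lowest median of the 72 lists. Of 48 kinetochore and spindle genes 47 fell and 0 rose (median -1.87). Plk1, a mitotic kinase, had 9.07, 12.4 and 11.3 FPKM in the hypoxia libraries, against 76.1, 67.05 and 72.1 FPKM in the control libraries (log2 change -2.67 ± 0.12 (SE), adjusted p = 1.98e-07 by limma). Cdca8, a subunit of the chromosomal passenger complex, had 3.53, 3.56 and 3.72 FPKM in the hypoxia libraries, against 22.6, 22.3 and 22.6 FPKM in the control libraries (log2 change -2.49 ± 0.06 (SE), adjusted p = 1.13e-08 by limma). In both the control values were at least 5 times any hypoxia value, and Sgo1 (-2.47) and Bub1b (-2.32) fell too. Of 45 DNA replication genes 42 fell and 0 rose (median -1.54). Gins1, of the replicative helicase, had 1.65, 2.32 and 1.94 FPKM in the hypoxia libraries, against 12.7, 14.5 and 15.6 FPKM in the control libraries (log2 change -2.58 ± 0.13 (SE), adjusted p = 3.37e-07 by limma). Rrm2, which makes deoxynucleotides, had 15.7, 14.4 and 14.5 FPKM in the hypoxia libraries, against 66.7, 71.4 and 70.6 FPKM in the control libraries (log2 change -2.19 ± 0.06 (SE), adjusted p = 1.84e-08 by limma). Pole (-2.14) and Mcm10 (-2.11) followed, with no overlap of the groups in any of the 4.

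Most genes of DNA repair and chromosome structure fell too. Of 34 genes of homologous recombination and the Fanconi pathway 32 fell and 0 rose (median -1.27). Those that fell included Exo1, Eme1 and Fancb (log2 changes of -2.07, -2.14 and -2.06). Mismatch and base excision repair counted 17 lower of 23. Apex1, the main abasic site nuclease, had 27.2, 25.7 and 27.02 FPKM in the hypoxia libraries, against 112, 95.2 and 107 FPKM in the control libraries (log2 change -1.95 ± 0.07 (SE), adjusted p = 6.14e-08 by limma), lower in every hypoxia library by over 3-fold. Of 26 genes of condensin, cohesin and DNA methylation 23 fell, among them Ncaph (-2.11) and the maintenance methylation factor gene Uhrf1 (-1.93). The member that rose was the de novo methyltransferase gene Dnmt3a (8.75, 10.4 and 9.09 FPKM in hypoxia and 7.66, 8.08 and 7.87 FPKM in control, log2 change 0.24 ± 0.08 (SE), adjusted p = 0.0217 by limma), which did not pass without hypoxia library 2, control library 1 or control library 3.

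Cyclins and their regulators were divided. Of 35 such genes 9 rose and 17 fell. Ccnb1 had 6.28, 8.01 and 8.98 FPKM in hypoxia and 46.9, 47.7 and 48.4 FPKM in control, Ccna2 had 6.9999, 9.002 and 8.48 FPKM in hypoxia and 44.2, 46.5 and 45.9 FPKM in control, and they fell (log2 changes of -2.56 and -2.42). E2f8, a repressor that is itself an E2F target, fell by 2.16. Ccng2, an atypical cyclin that slows the cycle, had 9.51, 8.71 and 7.79 FPKM in the hypoxia libraries, against 1.11, 1.69 and 1.22 FPKM in the control libraries (log2 change 2.33 ± 0.12 (SE), adjusted p = 5.55e-07 by limma), with every hypoxia value more than 4 times every control value. Mybl2, which acts on mitotic genes in a complex that binds the first motif shown next, had 12.2, 13.1 and 13.6 FPKM in hypoxia and 86.9, 74.9 and 81.8 FPKM in control (log2 change -2.60 ± 0.07 (SE), adjusted p = 2.61e-08 by limma).

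The promoters of 3 mitotic genes are shown because they hold letters that stood more often in promoters of genes that fell than in others.

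Cdc20 promoter: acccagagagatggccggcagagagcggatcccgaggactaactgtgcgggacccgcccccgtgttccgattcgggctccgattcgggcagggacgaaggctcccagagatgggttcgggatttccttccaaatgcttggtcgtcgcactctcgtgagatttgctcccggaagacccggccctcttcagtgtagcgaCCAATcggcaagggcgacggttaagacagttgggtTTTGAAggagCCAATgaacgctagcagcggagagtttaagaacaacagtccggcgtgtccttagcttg
Plk1 promoter: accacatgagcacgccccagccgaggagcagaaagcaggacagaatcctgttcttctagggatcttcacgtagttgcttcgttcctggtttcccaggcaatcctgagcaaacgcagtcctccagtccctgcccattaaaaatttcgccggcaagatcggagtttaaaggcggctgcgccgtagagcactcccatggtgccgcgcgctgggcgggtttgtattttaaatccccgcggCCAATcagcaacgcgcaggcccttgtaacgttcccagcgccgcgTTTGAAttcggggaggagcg
Ube2c promoter: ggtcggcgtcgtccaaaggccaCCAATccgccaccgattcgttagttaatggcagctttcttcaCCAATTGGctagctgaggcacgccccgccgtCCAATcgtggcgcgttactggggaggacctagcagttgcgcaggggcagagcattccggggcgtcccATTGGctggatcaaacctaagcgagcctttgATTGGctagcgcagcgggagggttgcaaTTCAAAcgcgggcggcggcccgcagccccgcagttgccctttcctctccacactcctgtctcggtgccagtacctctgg

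They lie at chr4:118437294-118437593 (minus strand), chr7:122159185-122159484 (plus strand) and chr2:164769679-164769978 (plus strand) of GRCm38.p6, with the same limits and orientation as above. Capitals mark TTTGAA, the core of the cell cycle genes homology region, and CCAAT, the box of the factor NF-Y, on either strand, so that TTCAAA and ATTGG are their reverse complements. Ube2c, a ubiquitin-conjugating enzyme of mitotic exit, had 8.09, 11.6 and 10.4 FPKM in hypoxia and 63.9, 59.01 and 60.7 FPKM in control (log2 change -2.56 ± 0.11 (SE), adjusted p = 2.02e-07 by limma). Cdc20, the activator of the same exit, fell by 2.92, and its gene overlaps Elovl1 on the other strand.

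TTTGAA stood in 24.6% of the 662 promoters of genes that fell by at least 1, in 9.98% of the 531 promoters of genes that rose by at least 1, in 9.94% of the 2928 promoters of genes that did not pass and in 11.6% of all 7943. In the 50 bases before it the motif stood in 7.25% of promoters of genes that fell, 0.753% of those of genes that rose and 1.02% of those that did not pass, and in the 50 bases after the start in 7.85%, 0.942% and 0.82%. Among kinetochore genes 19 of 41 promoters held it (46.3%), and among DNA replication genes 4 of 37 (10.8%). CCAAT stood in 50.8% of promoters of genes that fell, 37.7% of those that rose and 37.1% of those that did not pass, and in 29 of 41 kinetochore promoters (70.7%). The E2F forms TTTGGCGC and TTTCCCGC stood in 3.63% and 5.29% of promoters of genes that fell and in 0.188% and 0.377% of those of genes that rose, against 1.13% and 2.25% of all. In DNA replication promoters they reached 6 of 37 (16.2%) and 8 of 37 (21.6%). Promoters of genes that rose held the AP-1 site TGANTCA in 9.04% of cases, those of genes that fell in 3.47% and all in 4.52%, and the letters TATAAA in 10.7%, 6.19% and 6.56%. Median GC content was 60.3% in promoters of genes that rose, 60.0% in those of genes that fell and 61.3% in all. These are counts of letters on either strand of a 300-base window, not sites shown to be bound.

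**Figure D5:**
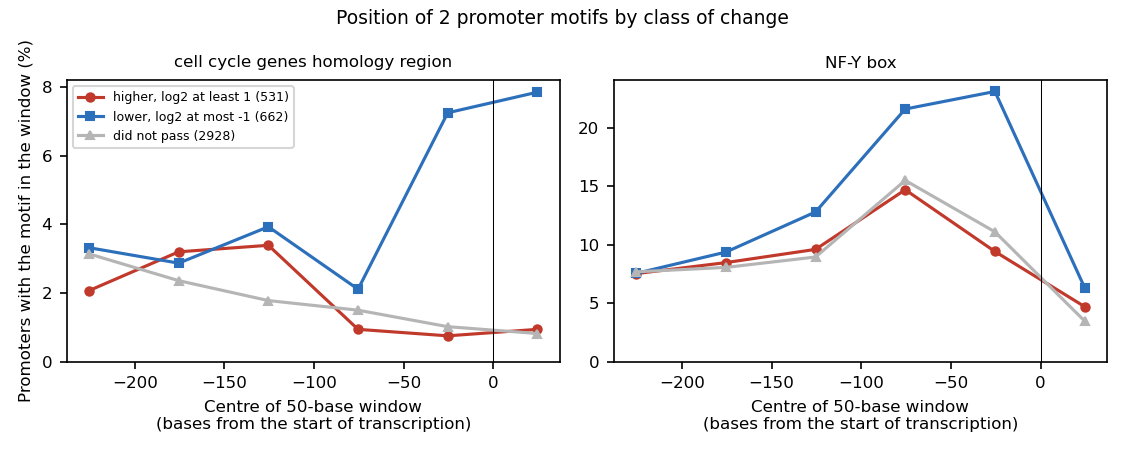
Lines give the percent of promoters that hold the cell cycle genes homology region (left) or the NF-Y box (right) in each 50-base window, by distance of its centre from the start of transcription, for genes that rose by at least 1 (red, 531), fell by at least 1 (blue, 662) or did not pass (grey, 2928). The blue line leaves the others in the windows next to the start, at 7.25% and 7.85% for the first motif.

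Immune genes rose more often than they fell, 130 against 60 of 259 tested members over 15 lists. Of 11 tested chemokines, which call leukocytes, 9 rose and 1 fell, and the summed chemokine transcripts took 1.38 ± 0.0567% of the FPKM sum in hypoxia and 0.441 ± 0.0577% in control (SD, n = 3 each). Cxcl2, which attracts neutrophils, had 115, 84.1 and 81.1 FPKM in the hypoxia libraries, against 4.93, 4.88 and 3.99 FPKM in the control libraries (log2 change 4.19 ± 0.14 (SE), adjusted p = 5.66e-08 by limma). Ccl4 had 432, 449 and 468 FPKM in the hypoxia libraries, against 111, 101 and 99.6 FPKM in the control libraries (log2 change 2.11 ± 0.06 (SE), adjusted p = 3.18e-08 by limma). Ccl12 was listed at 0 in all control libraries and had 2.40, 1.72 and 1.98 FPKM in hypoxia. Cxcl10, which is induced by interferon, went the other way, with 0.905, 1.34 and 1.13 FPKM in the hypoxia libraries, against 10.4, 11.2 and 11.97 FPKM in the control libraries (log2 change -2.85 ± 0.12 (SE), adjusted p = 1.40e-07 by limma), and no groups overlapped in these 4 genes. Their receptors counted 4 higher and 2 lower of 7. Ccr1, a receptor of Ccl3, had 30.4, 28.5 and 30.6 FPKM in the hypoxia libraries, against 5.67, 5.67 and 6.18 FPKM in the control libraries (log2 change 2.26 ± 0.06 (SE), adjusted p = 1.84e-08 by limma), Cx3cr1, the fractalkine receptor of microglia, rose by 2.10 and C3ar1 by 1.17, and Cxcr4 fell by 0.79.

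Inflammatory mediators rose more often than they fell, and interferon-stimulated genes fell more often. In the interleukin-1 list 7 of 12 rose and 3 fell. Nlrp3, the inflammasome sensor, had 24.3, 22.6 and 21.4 FPKM in the hypoxia libraries, against 5.16, 5.66 and 4.304 FPKM in the control libraries (log2 change 2.07 ± 0.09 (SE), adjusted p = 2.21e-07 by limma), while Casp1, the protease it activates, had 7.65, 7.59 and 6.01 FPKM in the hypoxia libraries, against 9.69, 12.03 and 12.1 FPKM in the control libraries (log2 change -0.64 ± 0.14 (SE), adjusted p = 0.00337 by limma). Il1a and the receptor antagonist gene Il1rn rose by 2.17 and 1.91. Of 24 NF-kappaB genes 12 rose and 3 fell, and the inhibitors Tnip3 (2.43) and Tnfaip3 (1.76) were among those that rose and the atypical inhibitor Nfkbid (-1.35) among those that fell. Prostaglandin and leukotriene genes counted 6 higher and 4 lower of 12. Ptges, the inducible synthase of prostaglandin E, had 7.06, 6.28 and 6.18 FPKM in the hypoxia libraries, against 1.25, 1.34 and 1.0997 FPKM in the control libraries (log2 change 2.02 ± 0.11 (SE), adjusted p = 5.76e-07 by limma), and Ptgs2, which feeds it, rose by 3.19, whereas Pla2g4a, which releases arachidonic acid, fell by 0.59. Of 25 interferon-stimulated genes 14 fell and 4 rose. Rsad2 had 1.57, 2.02 and 1.698 FPKM in hypoxia and 7.94, 10.9 and 10.7 FPKM in control, Usp18 fell by 2.08, and the RNA exonuclease gene Isg20 rose by 1.96.

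Toll-like receptors were divided. Of 21 receptors and adaptors 10 rose and 4 fell. Tlr13, a mouse sensor of bacterial ribosomal RNA, had 87.3, 91.5 and 83.8 FPKM in the hypoxia libraries, against 25.8, 30.2 and 25.4 FPKM in the control libraries (log2 change 1.67 ± 0.07 (SE), adjusted p = 2.04e-07 by limma), and Tlr6 and the coreceptor gene Cd14 rose by 1.57 and 1.31. Tlr2 had 15.2, 18.03 and 18.5 FPKM in the hypoxia libraries, against 32.2, 33.7 and 31.3 FPKM in the control libraries (log2 change -0.89 ± 0.08 (SE), adjusted p = 1.58e-05 by limma). The adaptor gene Myd88 fell by 0.85 and the adaptor gene Ticam1 rose by 1.24, with no overlap of the groups in either. Antigen presentation counted 6 higher and 6 lower of 19. Cd74, the invariant chain of class II, had 222, 198 and 202 FPKM in the hypoxia libraries, against 65.2, 60.5 and 60.9 FPKM in the control libraries (log2 change 1.73 ± 0.07 (SE), adjusted p = 1.07e-07 by limma), and the immunoproteasome gene Psmb10 fell by 1.23.

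Surface receptors for debris and opsonised targets rose in most cases. Of 20 scavenger, lectin and efferocytosis receptors 15 rose and 1 fell (median 0.69). Trem1, which amplifies inflammatory signals in myeloid cells, had 17.97, 13.97 and 15.95 FPKM in the hypoxia libraries, against 1.52, 1.28 and 1.67 FPKM in the control libraries (log2 change 3.04 ± 0.10 (SE), adjusted p = 6.14e-08 by limma). Mertk, a receptor for apoptotic cells, had 3.36, 3.49 and 3.19 FPKM in the hypoxia libraries, against 0.166, 0.153 and 0.257 FPKM in the control libraries (log2 change 2.48 ± 0.11 (SE), adjusted p = 2.12e-07 by limma). Clec12a (2.01) and the lipid exporter gene Abca1 (1.60) rose too, with no overlap of the groups in any of the 4, and Scarb2 fell (-1.03). Of 12 complement and Fc receptor genes 7 rose and 2 fell (1 without hypoxia library 1 or 3 or control library 2 or 3). Fcgr3 had 84.8, 107 and 123 FPKM in the hypoxia libraries, against 31.4, 29.7 and 29.6 FPKM in the control libraries (log2 change 1.76 ± 0.12 (SE), adjusted p = 1.90e-06 by limma), Itgb2 and Itgax of the complement receptors rose by 1.37 and 1.20, and C1ra fell by 1.42. Itgam, an integrin subunit that forms complement receptor 3, stood in the files as a pair of overlapping entries on the same strand, between which reads cannot be told apart. The shorter entry had 19.999, 65.2 and 33.6 FPKM in the hypoxia libraries, against 22.6, 21.7 and 20.5 FPKM in the control libraries, and the longer one 42.2, 0.00245 and 23.8 FPKM in the hypoxia libraries, against 0, 0.0166 and 0 FPKM in the control libraries. Neither entry passed the test on its own (adjusted p = 0.180 and 0.0946 by limma). In each hypoxia library at least 1 of the entries lay above every control value of both, and their sum was not tested.

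Secreted ligands rose in 18 of 24 tested cases and fell in 3. Csf3, which drives neutrophil production, had 24.9, 22.8 and 22.7 FPKM in the hypoxia libraries, against 1.93, 3.03 and 1.79 FPKM in the control libraries (log2 change 3.15 ± 0.15 (SE), adjusted p = 2.92e-07 by limma). Pgf, placental growth factor, had 4.64, 3.75 and 3.92 FPKM in the hypoxia libraries, against 0.0711, 0.0949 and 0.0528 FPKM in the control libraries (log2 change 3.00 ± 0.13 (SE), adjusted p = 1.61e-07 by limma). Apln, the vessel-guiding peptide apelin, rose by 2.52 and Hbegf by 2.25. The hypoxia values of all 4 were more than 4 times any control value. Vegfb, a relative of Vegfa, had 14.2, 15.9 and 17.8 FPKM in hypoxia and 36.4, 34.5 and 30.7 FPKM in control and fell by 1.06. Extracellular proteases and their inhibitors rose in 16 of 23 cases and fell in 2, F7 and Timp1 (-0.56). Of these, 0 fell without hypoxia library 1, control library 1 or control library 3 and after median-of-ratios or quantile scaling, and 1 fell without hypoxia library 2 or control library 2. F10, coagulation factor X, had 30.2, 22.1 and 27.9 FPKM in the hypoxia libraries, against 1.102, 0.762 and 0.851 FPKM in the control libraries (log2 change 4.27 ± 0.12 (SE), adjusted p = 2.94e-08 by limma). Mmp10, stromelysin-2, had 7.28, 4.22 and 5.36 FPKM in the hypoxia libraries, against 0.0389, 0 and 0 FPKM in the control libraries (log2 change 3.55 ± 0.18 (SE), adjusted p = 3.97e-07 by limma). F7, the factor that activates F10, lay at 28.9, 29.5 and 32.8 FPKM in hypoxia and 37.05, 32.8 and 33.96 FPKM in control and fell by 0.18, a call that was kept in 6 of 19 other settings.

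In the list of oxidants and arginine 6 of 16 rose and 4 fell. Gch1, which makes the cofactor of nitric oxide synthase, had 7.13, 5.18 and 6.36 FPKM in the hypoxia libraries, against 1.76, 1.61 and 2.101 FPKM in the control libraries (log2 change 1.53 ± 0.12 (SE), adjusted p = 5.69e-06 by limma). Slc7a2, an arginine carrier of macrophages, had 1.87, 1.94 and 1.99 FPKM in the hypoxia libraries, against 4.87, 6.12 and 5.42 FPKM in the control libraries (log2 change -1.29 ± 0.11 (SE), adjusted p = 8.34e-06 by limma), the opposite direction to Nos2 (4.05), whose enzyme uses arginine. Purinergic genes counted 5 higher and 4 lower of 10, with 2 lower without hypoxia library 1, control library 1 or control library 3. P2ry6, a UDP receptor tied to phagocytosis, had 3.25, 3.198 and 3.11 FPKM in the hypoxia libraries, against 0.492, 0.367 and 0.248 FPKM in the control libraries (log2 change 2.09 ± 0.13 (SE), adjusted p = 1.06e-06 by limma), Entpd1, which degrades extracellular ATP, rose by 1.35, and Slc29a1, which takes up adenosine, had 5.96, 7.51 and 6.47 FPKM in the hypoxia libraries, against 28.05, 27.6 and 27.9 FPKM in the control libraries (log2 change -1.99 ± 0.09 (SE), adjusted p = 2.22e-07 by limma). Of 24 macrophage transcription factors 6 rose and 7 fell. Maf had 4.46, 5.04 and 4.21 FPKM in the hypoxia libraries, against 0.577, 0.715 and 0.562 FPKM in the control libraries (log2 change 2.18 ± 0.10 (SE), adjusted p = 2.10e-07 by limma), and Batf3 and Rxra fell (log2 changes of -1.97 and -1.23). In each of these genes the groups were apart.

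Feedback inhibitors of kinase signalling rose in most cases. Of 20 DUSP phosphatases, Sprouty and SPRED genes 16 rose and 2 fell (median 0.74). Dusp6, which inactivates ERK, had 12.1, 12.96 and 12.8 FPKM in the hypoxia libraries, against 3.301, 3.19 and 3.11 FPKM in the control libraries (log2 change 1.82 ± 0.06 (SE), adjusted p = 4.89e-08 by limma). Dusp14 (1.82), Dusp1 (1.80) and the EGF receptor inhibitor gene Errfi1 (1.50) also rose, and Dusp2 (-0.76) and Dusp7 (-0.57) fell. Of 25 SOCS and JAK-STAT genes 15 rose and 4 fell. Il13ra1, a receptor chain for interleukins 4 and 13, had 42.4, 43.2 and 38.02 FPKM in the hypoxia libraries, against 7.72, 9.51 and 8.27 FPKM in the control libraries (log2 change 2.21 ± 0.08 (SE), adjusted p = 8.92e-08 by limma), Il10ra rose by 1.99, Socs3 by 1.52 and Jak1 by 0.95, and Il6ra fell by 0.68. Immediate early genes counted 11 higher and 5 lower of 20. Ier3, an early survival gene, had 487, 399.6 and 421 FPKM in the hypoxia libraries, against 120.4, 109.8 and 125 FPKM in the control libraries (log2 change 1.87 ± 0.09 (SE), adjusted p = 2.59e-07 by limma), Cyr61 and Maff rose by 2.49 and 1.78, and Zfp36l2, which destabilises messenger RNA, fell by 1.06.

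Of 20 integrins and adhesion genes, 12 rose and 4 fell. Itga5, of the fibronectin receptor, had 76.3, 73.999 and 72.7 FPKM in the hypoxia libraries, against 29.9, 27.7 and 26.4 FPKM in the control libraries (log2 change 1.40 ± 0.06 (SE), adjusted p = 2.12e-07 by limma). Itga4, of a further fibronectin receptor, had 1.24, 1.94 and 1.51 FPKM in the hypoxia libraries, against 5.22, 6.01 and 6.02 FPKM in the control libraries (log2 change -1.61 ± 0.13 (SE), adjusted p = 7.98e-06 by limma). The groups did not overlap in either, and Itga6 rose by 1.95 while Itgb5 fell by 1.11. The TGF-beta and BMP list counted 6 higher and 1 lower of 18 (3 lower without control library 1), with Tgfbr2 at 1.12 and Smad7 at 0.90. Of 15 Notch, Wnt and Hippo genes 6 rose and 3 fell. Notch4 had 4.01, 3.73 and 3.52 FPKM in the hypoxia libraries, against 0.645, 0.459 and 0.446 FPKM in the control libraries (log2 change 2.07 ± 0.12 (SE), adjusted p = 1.02e-06 by limma), and Notch1 had 0.477, 0.748 and 0.795 FPKM in the hypoxia libraries, against 2.04, 2.38 and 2.03 FPKM in the control libraries (log2 change -1.18 ± 0.14 (SE), adjusted p = 9.36e-05 by limma), so that the 2 receptors moved in opposite directions.

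Stress pathways did not share a direction. Genes of the ATF4 response and other amino acid genes, counted as 1 list, were lower in 23 of 30 cases and higher in 2. Without hypoxia library 3 or control library 3 there was 1 higher. The median log2 change of the list was -0.69. Slc7a5, a carrier of large neutral amino acids, had 18.97, 21.7 and 22.4 FPKM in the hypoxia libraries, against 80.8, 86.95 and 76.7 FPKM in the control libraries (log2 change -1.93 ± 0.08 (SE), adjusted p = 1.18e-07 by limma). Phgdh, the entry to serine synthesis, had 106, 94.3 and 111 FPKM in the hypoxia libraries, against 278, 254 and 271 FPKM in the control libraries (log2 change -1.37 ± 0.08 (SE), adjusted p = 1.28e-06 by limma). In both the groups were over 2-fold apart, and Slc1a4 fell by 1.68. Of 29 NRF2 targets and glutathione genes 14 fell and 2 rose. Gclc and Gclm, the subunits that make glutathione, fell (log2 changes of -1.12 and -1.12), and Slc7a11, which imports cystine for it, had 14.1, 13.4 and 12.2 FPKM in the hypoxia libraries, against 25.2, 33.6 and 30.1 FPKM in the control libraries (log2 change -1.13 ± 0.10 (SE), adjusted p = 1.32e-05 by limma). Cytosolic heat shock chaperones fell in 15 of 24 cases. Fkbp4, a cochaperone of HSP90, had 38.2, 41.1 and 43.5 FPKM in the hypoxia libraries, against 120.2, 106 and 115 FPKM in the control libraries (log2 change -1.46 ± 0.07 (SE), adjusted p = 3.48e-07 by limma), Ahsa1 fell by 1.25, and Dnajb1 rose by 0.59.

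Chaperones of the endoplasmic reticulum counted 7 higher and 6 lower of 27, or 11 and 5 after median-of-ratios scaling. Ero1l, the oxidase that forms disulfides there and a HIF target, had 292, 265 and 248 FPKM in the hypoxia libraries, against 20.5, 29.1 and 25.3 FPKM in the control libraries (log2 change 3.41 ± 0.12 (SE), adjusted p = 6.40e-08 by limma). Edem2 and Sdf2l1 rose by 0.73 and 0.68, and Manf and Hyou1 fell (log2 changes of -0.54 and -0.38). Of 33 autophagy genes 18 rose and 0 fell. Atg4c, a protease that processes LC3 proteins, had 10.2, 10.4 and 10.4 FPKM in hypoxia and 5.29, 6.42 and 5.14 FPKM in control (log2 change 0.83 ± 0.08 (SE), adjusted p = 2.24e-05 by limma). Of 48 lysosomal genes 23 rose and 8 fell. Lipa, lysosomal acid lipase, had 5.35, 5.92 and 5.58 FPKM in the hypoxia libraries, against 23.6, 26.9 and 26.8 FPKM in the control libraries (log2 change -2.10 ± 0.08 (SE), adjusted p = 9.57e-08 by limma), the furthest fall in that list. BCL2 family genes counted 4 higher and 3 lower of 17, with the pro-apoptotic Bik (1.58) and Bcl2l11 (1.28) and the protective Mcl1 (1.03) among those that rose.

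Genes of iron and zinc were divided. Of 19 iron genes 6 rose and 9 fell. Steap3, the reductase that frees iron from endosomes, had 2.496, 3.54 and 3.36 FPKM in the hypoxia libraries, against 15.1, 12.9 and 14.4 FPKM in the control libraries (log2 change -2.02 ± 0.12 (SE), adjusted p = 8.40e-07 by limma). Slc40a1, the iron exporter ferroportin, had 1.49, 1.51 and 1.44 FPKM in the hypoxia libraries, against 3.39, 3.99 and 3.22 FPKM in the control libraries (log2 change -1.03 ± 0.10 (SE), adjusted p = 1.86e-05 by limma). Slc11a2, which moves iron into the cytosol, had 24.3, 24.2 and 24.8 FPKM in the hypoxia libraries, against 15.3, 14.8 and 14.7 FPKM in the control libraries (log2 change 0.69 ± 0.05 (SE), adjusted p = 4.26e-06 by limma), and no groups overlapped in the 3 genes. Zinc and metallothionein genes counted 9 higher and 5 lower of 18. Mt1, metallothionein 1, had 303, 251 and 292 FPKM in the hypoxia libraries, against 176, 123 and 152 FPKM in the control libraries (log2 change 0.92 ± 0.12 (SE), adjusted p = 0.000189 by limma), Slc30a9 rose by 1.10 and Slc39a6 fell by 0.87.

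Lipid lists were mixed. Of 27 lipid droplet and lipin genes 9 rose and 9 fell. Hilpda, which blocks the main triglyceride lipase and is a HIF target, had 58.6, 44.9 and 43.02 FPKM in the hypoxia libraries, against 9.09, 9.74 and 9.65 FPKM in the control libraries (log2 change 2.29 ± 0.11 (SE), adjusted p = 3.48e-07 by limma). Lpin1 and Lpin2, which make diacylglycerol, rose by 1.53 and 1.37, and Nceh1, a cholesterol ester hydrolase, fell by 1.11. Cholesterol synthesis and uptake counted 12 higher and 5 lower of 26. Msmo1, an oxygen-consuming sterol demethylase, had 59.4, 51.7 and 47.4 FPKM in the hypoxia libraries, against 16.4, 19.8 and 28.7 FPKM in the control libraries (log2 change 1.30 ± 0.20 (SE), adjusted p = 0.000453 by limma), Insig2, which holds SREBP back, rose by 1.21, Scap, which escorts it, fell by 1.08, and Dhcr7, the last step of the pathway, fell by 0.90. Fatty acid synthesis fell in 6 of 12 cases and rose in 3. Me1, malic enzyme, had 177, 162 and 161 FPKM in the hypoxia libraries, against 50.6, 52.9 and 51.2 FPKM in the control libraries (log2 change 1.68 ± 0.06 (SE), adjusted p = 6.14e-08 by limma), while Elovl6 and Acaca fell (log2 changes of -1.02 and -0.78). Of 26 genes of ethanolamine and choline phospholipids 9 rose and 5 fell, with a median of 0.000552. Phospho1, a phosphatase of phosphoethanolamine and phosphocholine, had 11.8, 8.53 and 8.12 FPKM in the hypoxia libraries, against 3.36, 3.07 and 3.21 FPKM in the control libraries (log2 change 1.41 ± 0.21 (SE), adjusted p = 0.000328 by limma), Pld2 rose by 1.09, and Selenoi, the ethanolaminephosphotransferase, fell by 0.59.

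Splicing factors and host genes of small nucleolar RNAs fell more often than they rose, while most listed long non-coding RNAs did not pass. SR proteins and CLK kinases fell in 19 of 29 cases and rose in 3. Srsf2 had 59.4, 58.97 and 56.3 FPKM in the hypoxia libraries, against 109, 121 and 112 FPKM in the control libraries (log2 change -0.96 ± 0.06 (SE), adjusted p = 2.03e-06 by limma), with every hypoxia value below every control value, and Srsf4 fell by 1.49. Of 11 host genes of small nucleolar RNAs 7 fell and 0 rose (1 without control library 2), with Snhg5 at -1.68 and Snhg1 at -0.87. Malat1, a nuclear long non-coding RNA, had 176, 245 and 151 FPKM in the hypoxia libraries, against 60.2, 85.96 and 72.1 FPKM in the control libraries (log2 change 1.37 ± 0.20 (SE), adjusted p = 0.000258 by limma), and Mir22hg rose by 1.94. These were the 2 that rose of 13 in that list, and Gas5 fell by 0.57.

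Direction differed between classes of transcript. Among 9821 protein coding genes 2574 rose (26.2%) and 3647 fell (37.1%), while among 162 lincRNAs 63 rose (38.9%) and 26 fell (16.0%), and among 131 antisense RNAs 52 rose (39.7%) and 16 fell (12.2%). Pseudogenes counted 142 higher and 331 lower of 1222. The strand used in counting is not stated, so an antisense RNA cannot be told from the gene it overlaps. The same holds for genes named above that overlap another coding gene on the other strand, among them Gys1 with Ruvbl2, Pgm2 with Itgb3bp, Ankrd37 with Ufsp2, Phospho1 with Abi3, G6pdx with Ikbkg, Mars with Ddit3, Myd88 with Acaa1a, Srsf2 with Mfsd11, Hspd1 with Hspe1, Shmt2 with Ndufa4l2 and Ube2c with Tnnc2. By abundance, 52.0% of genes at 1 to 5 FPKM, 67.4% at 20 to 100 FPKM and 51.3% at 100 FPKM or more passed. The exons of a gene were summed, with overlaps counted once. The median of this sum was 3950 bases in protein coding genes that rose by at least 1, 4106 bases in those that fell by at least 1 and 4455 bases in all.

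Of 71 tested microRNA loci 21 rose (29.6%, against 24.7% of all genes tested) and 4 fell (5.63%, against 34.7%). Of the 21, 13 lay in no other gene of the same strand. The filter lets low loci in through hypoxic values more easily than through control values. Values of these loci come from reads over the precursor locus and do not measure the mature microRNA. The mature sequences of 3 such loci are shown because each is known in macrophage or vascular biology and its locus was listed at 0 in at least 1 control library. They were chosen after their values were seen.

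miR-221-3p: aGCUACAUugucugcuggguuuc
miR-146a-5p: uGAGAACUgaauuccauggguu
miR-27a-3p: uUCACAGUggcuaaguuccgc

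They come from RefSeq on GRCm38.p6, at chrX:19146307-19146329 (minus strand), chr11:43374435-43374456 (minus strand) and chr8:84208727-84208747 (plus strand), and capitals mark the seed, bases 2 to 8, which differs between the 3. The locus of Mir221 had 4.27, 2.83 and 3.12 FPKM in the hypoxia libraries, against 0, 0.0785 and 0.0187 FPKM in the control libraries (log2 change 2.86 ± 0.37 (SE), adjusted p = 0.000144 by limma). The locus of Mir146, which in human and mouse cells is known as an NF-kappaB target that dampens Toll-like receptor signalling, had 0.866, 1.78 and 2.61 FPKM in the hypoxia libraries, against 0, 0 and 0.189 FPKM in the control libraries (log2 change 1.94 ± 0.33 (SE), adjusted p = 0.00074 by limma). The locus of Mir27a had 2.43, 4.24 and 2.31 FPKM in the hypoxia libraries, against 1.12, 0 and 0 FPKM in the control libraries (log2 change 2.20 ± 0.50 (SE), adjusted p = 0.00435 by limma). Every hypoxia value of the 3 loci was above every control value, at low levels throughout.

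Some genes that changed lay side by side. Along the chromosomes 12 runs of at least 3 neighbouring tested protein coding genes all rose by at least 1, and 12 runs all fell by at least 1. Among all genes tested 7.22% rose and 8.1% fell that far, and the number of runs to expect from these shares was not worked out. The rising run at chr10:51480612-51496613 lists Lilrb4a, Lilr4b and Lilrb4a again, so a symbol stands in it more than once. The longest rising runs held 5 genes, Cd300ld to Tmem104 at chr11:114982274-115247023, with Cd300lf, an inhibitory myeloid receptor, and Atp7a to A630033H20Rik at chrX:106027276-107173661, where Tlr13, Pgk1 and the leukotriene receptor gene Cysltr1 are neighbours. Ccl6, Ccl3, Ccl4 and Wfdc17 rose together at chr11:83587882-83706268. The run with the highest changes, 4.21 to 4.87, held Gm5483, Gm5416 and 2010005H15Rik at chr16:36184212-36257444, which have only predicted or clone names. Another run held genes of related names, Pilra, Pilrb1 and Pilrb2. Neighbours of close sequence may share reads, and this was not tested for any run. The longest falling run held Rangrf, Pfas, Ctc1 and Aurkb at chr11:68972484-69051664, with changes of -1.86 to -1.25, and includes a purine synthesis enzyme, a telomere protein and the Aurora B kinase.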

How the data were processed

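RNA sequencing libraries of BV2 cells, 3 from hypoxia and 3 controls, were compared. A further 3 libraries of hypoxia with ethanolamine entered the filter, the principal components and, in the fit, the estimate of the spread. The deposited values are FPKM per gene, made by the authors; per the submitters' processing notes the genome build was GRCm38 (mm10). Not given in the sources used here are the aligner, the quantifier, the annotation, the strand setting and the read totals.

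Genes whose FPKM averaged 1 or more across the 9 libraries were kept, and log2(FPKM + 0.5) was fitted with limma 3.58.1 in R 4.3.3 (moderated test with a mean-variance trend, 2-sided, Benjamini-Hochberg adjustment over 11802 genes, threshold 0.05). FPKM values are not counts, so no count model was used. Tables and figures were made with version 1.17.8 of data.table, Python 3.11.15, pandas 2.3.3 and matplotlib 3.10.9. Positions and biotypes came from GENCODE M21 on GRCm38, which held 55154 of the identifiers, and sequences from RefSeq on GRCm38.p6.

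Members, lists and tests were chosen with earlier results of these data known. Named genes are the 15 highest and 15 lowest changes with a mean of at least 5 FPKM, up to 4 members of a list in its main direction and 2 in the other, the largest differences in FPKM, and markers. Some of the genes named by the rule are not reported here. Alternatives were pseudocounts of 0.1 and 1, no filter, quantile and median-of-ratios scaling, a filter of 5 FPKM, a replicate block, a fit of only 6 libraries, no trend, a log2 change of at least 1, and leaving out each library. A rescaling that leaves out mitochondrial and ribosomal RNA-like transcripts was added after seeing the data. The deposited table of FPKM bins did not enter.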

Additional observations from a re-analysis of the deposited data

How the results depend on the processing

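Of 264 named genes that passed, 253 passed in the same direction in all 19 other settings that tested them, and 0 were reversed. The exceptions were F7, mt-Co2, Timp1, Cul2, Qars, Dnmt3a, mt-Nd6, AY036118, Mpc2, Eif4e and mt-Nd1. Epo and mt-Atp6, which did not pass, passed in 2 and 4 other settings. Most named genes were picked for large changes among genes that passed in the main fit. Their keeping the call was therefore likely from the outset. Of all 7011 genes that passed, 5813 passed in the same direction in every other setting that tested them. The total of 7011 became 4671 with a filter of 5 FPKM, which tests fewer genes, and 1808 with a log2 change of at least 1 required. The 2919 higher genes became 1905 and 852 in these settings, and the 4092 lower genes became 956 in the second. With the filter of 5 FPKM the 852 genes higher by at least 1 became 493 and the 956 lower by at least 1 became 568. Leaving out 1 library gave totals of 6395 to 6976, with 2655 to 2890 higher and 3740 to 4087 lower, and 830 to 862 and 892 to 979 with a change of at least 1. Median-of-ratios scaling gave 3281 higher and 3695 lower (47.0% of calls higher, against 41.6%), quantile scaling 3315 and 3646 (47.6%), and the added rescaling that leaves out mitochondrial and ribosomal RNA-like transcripts 2778 and 4147.

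Hypoxia and control libraries share replicate numbers. Their deviations from the group means correlated at -0.0662, 0.109 and -0.0135 for the same numbers, so the numbers were not taken to pair the libraries. With the replicate number as a block 6901 genes passed, 2858 higher and 4043 lower.

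The filter of 5 FPKM tests fewer members and moved the most list counts by over 1.5 times, 35 of them. The lower genes became 7 instead of 32 in homologous recombination, 29 instead of 47 in the kinetochore, 6 instead of 17 in mismatch repair and 4 instead of 14 among interferon-stimulated genes, and the higher scavenger receptors 8 instead of 15. Read totals are not given, so the smallest detectable change of a low gene is unknown. Values are shares of a library, and do not tell less RNA per cell from fewer cells.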

Other observations

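Some genes under the filter of 1 FPKM, which were not tested, had values in all libraries of 1 group and were listed at 0 in the other. In this way 309 genes were above 0 in the 3 hypoxia libraries and listed at 0 in the 3 control libraries, 47 of them with a mean of at least 0.5 FPKM in hypoxia, and 122 genes showed the reverse, 11 of them with a mean of at least 0.5 FPKM in control. The genes given here were chosen after their values were seen, all were listed at 0 in the 3 control libraries, and no fold is given. Mmp13, which encodes collagenase 3, had 1.89, 1.58 and 1.74 FPKM in the hypoxia libraries. Stfa3, of the stefin A protease inhibitors, had 2.497, 0.529 and 2.08 FPKM in the hypoxia libraries. Adm, which encodes the vasodilator adrenomedullin and is a known HIF target, had 0.844, 0.559 and 0.536 FPKM in the hypoxia libraries. Mir222, whose mature microRNA shares its seed family with that of Mir221, had 1.68, 0.273 and 1.701 FPKM over its locus in the hypoxia libraries. Epo, which encodes erythropoietin, the hormone through which the hypoxia response was found, overlaps Gnb2 and Pop7 on the same strand, and it passed the filter but not the test, with 0, 3.001 and 7.47 FPKM in the hypoxia libraries (adjusted p = 0.142 by limma), although it passed without hypoxia library 1 and without ethanolamine library 3.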
